A study of Arabidopsis thaliana with 9 samples.

Results

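The introns described here are the constitutive introns of Arabidopsis thaliana that are 121 to 300 bases long. They were taken by length alone from the deposited intron counts, in which a constitutive intron is one outside every annotated alternative splicing event. They number 29127 of 120717 introns (24.1%), lie in 13576 genes and have a median length of 174 bases. RNA was sequenced from whole plants of 3 genotypes in the Columbia ecotype, with 3 libraries each and 9 in all. The prmt5 plants carried the prmt5-5 allele, the prmt4a;4b plants came from a cross of the T-DNA lines SALK_033423 (prmt4a) and SALK_097442 (prmt4b), and the WT plants carried none of these. Each mutant genotype is thus a single line. All plants grew on Murashige and Skoog agarose under continuous light without further treatment, and the labels and the methods name different harvest days, the same for every genotype in each source. Both mutants are set against the same 3 WT libraries, and the sources used here do not say whether these grew beside both mutants or whether replicates were separate cultures. The p-values therefore measure the spread between these libraries, which may be technical.

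PRMT5 is a type II arginine methyltransferase, which adds symmetric dimethyl marks, among others to the Sm proteins at the core of the spliceosomal particles. PRMT4A and PRMT4B are type I enzymes, which add asymmetric marks. An intron is recognised at its donor site, where the U1 particle pairs with the last bases of the exon and the first bases of the intron, and at its acceptor site, which ends in AG. Introns left in the mature transcript are called retained, the commonest form of alternative splicing in plants. The question asked of the data was whether retention of these introns differed in each mutant from WT and between the mutants.

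The sequences of 7 introns, picked by hand from those named below, show examples of their donor sites. The first 4 are introns that rose in prmt5, FNR2 intron 1 rose in both mutants, and PRXR1 intron 1 and PRP39 intron 8 fell in both. They are RefSeq sequences of the TAIR10.1 assembly, printed 5′ to 3′ on the strand of the gene with 3 exon bases on either side, and the capitals mark the 9 donor bases (the last 3 of the exon and the first 6 of the intron) and the AG at the end of the intron. All 7 lie between coding exons. The printed stretches are chr4:886726-886982 on the plus strand (SWN), chr4:12910455-12910599 on the plus strand (AT4G25170), chr2:15143349-15143477 on the minus strand (MMZ3), chr3:189296-189430 on the plus strand (CYP38), chr1:6942953-6943230 on the plus strand (FNR2), chr4:11647961-11648087 on the minus strand (PRXR1) and chr1:1054526-1054665 on the plus strand (PRP39).
SWN intron 1: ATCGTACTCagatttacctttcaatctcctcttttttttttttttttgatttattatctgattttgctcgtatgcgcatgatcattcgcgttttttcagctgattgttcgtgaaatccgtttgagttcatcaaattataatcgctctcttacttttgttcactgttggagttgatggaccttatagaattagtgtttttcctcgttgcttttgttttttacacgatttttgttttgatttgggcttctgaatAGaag
AT4G25170 intron 2: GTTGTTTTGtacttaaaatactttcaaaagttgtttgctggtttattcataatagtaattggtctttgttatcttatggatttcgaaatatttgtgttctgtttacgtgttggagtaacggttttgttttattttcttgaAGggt
MMZ3 intron 2: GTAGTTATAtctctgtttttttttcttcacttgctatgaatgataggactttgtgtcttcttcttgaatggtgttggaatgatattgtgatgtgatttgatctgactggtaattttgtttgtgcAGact
CYP38 intron 2: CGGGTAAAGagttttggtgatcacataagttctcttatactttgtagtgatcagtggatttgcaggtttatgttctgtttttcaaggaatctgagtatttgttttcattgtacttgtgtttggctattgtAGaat
FNR2 intron 1: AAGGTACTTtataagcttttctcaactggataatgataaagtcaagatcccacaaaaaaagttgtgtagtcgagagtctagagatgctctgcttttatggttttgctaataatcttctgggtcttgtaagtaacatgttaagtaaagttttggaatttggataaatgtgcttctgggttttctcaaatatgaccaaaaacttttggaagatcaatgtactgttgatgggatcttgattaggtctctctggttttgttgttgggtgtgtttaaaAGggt
PRXR1 intron 1: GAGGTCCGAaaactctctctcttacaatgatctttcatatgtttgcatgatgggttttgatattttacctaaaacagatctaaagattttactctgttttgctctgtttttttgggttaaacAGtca
PRP39 intron 8: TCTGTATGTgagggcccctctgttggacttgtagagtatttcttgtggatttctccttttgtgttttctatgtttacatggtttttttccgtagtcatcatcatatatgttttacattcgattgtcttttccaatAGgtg

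At the 7 donor positions beside the GT, the usual bases are A, A and G at -3, -2 and -1 of the exon and A, A, G and T at +3, +4, +5 and +6 of the intron. The donor of AT4G25170 intron 2 matches none of these bases, that of MMZ3 intron 2 matches 1, that of SWN intron 1 matches 2 and that of CYP38 intron 2 matches 3. The donors of PRXR1 intron 1 and PRP39 intron 8 match 3 each, and that of FNR2 intron 1 matches 5. These 7 do not stand for all introns that rose in prmt5. Others named below match 1 (SR34a intron 2), 4 (CJD1 intron 6 and AT1G01320 intron 1) or 5 (LCL1 intron 7). Over all GT-AG introns of the class the mean was 3.99 of 7. GT-AG ends were found in 28683 of the 29069 introns with a known strand (98.7%).

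Libraries held 31917097 to 39904677 gene reads in prmt5, 28137176 to 29706081 in prmt4a;4b and 25029646 to 31835579 in WT. Reads over all constitutive introns made up 19.8 to 21.0 per 1000 gene reads in prmt5, 15.6 to 17.6 in prmt4a;4b and 16.3 to 17.0 in WT. Plastid-encoded transcripts took 0.604 to 2.10% of gene reads in prmt5, 0.869 to 3.94% in prmt4a;4b and 0.323 to 0.58% in WT. The part of plastid RNA or of unspliced RNA in the results was not tested. PRMT4A averaged 45.1 ± 19.7 normalised reads in prmt4a;4b against 328 ± 10.8 in WT, and PRMT4B 23.6 ± 8.60 in prmt4a;4b against 377 ± 18.9 in WT (SD, n = 3), log2 changes of -2.84 ± 0.25 and -3.97 ± 0.23 (SE; edgeR adjusted p = 5.29e-05 and 5.70e-06). PRMT5 transcripts averaged 865 ± 123 in prmt5 against 695 ± 23.8 in WT (log2 0.27 ± 0.13, adjusted p = 0.138), so the counts give no check of that label. In prmt5, PRMT4A was 214 ± 17.2 normalised reads, a fall of the gene relative to WT (log2 -0.66 ± 0.15, adjusted p = 0.00645). The reads of the 36 introns of the class in the 9 arginine methyltransferase genes were too few for any of them to be tested.

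More reads lay in introns of 121 to 300 bases in prmt5 than in either other genotype. Per 1000 gene reads, the prmt5 libraries held 4.20, 4.32 and 4.00 reads in them, the prmt4a;4b libraries 2.93, 3.43 and 2.88, and the WT libraries 3.28, 3.35 and 3.2. The 3 prmt5 libraries were above all others, while the prmt4a;4b libraries lay on both sides of WT. This is a measure over all members, with no filter on reads. The splicing index, the read density of an intron over that of its gene, is 0 where the intron carries no reads and near 1 where it is covered as densely as the gene. Of the 20283 introns of the class in genes with a read density above 0.05 in each genotype, 32.4%, 30.2% and 30.5% had an index above 0.05 in the prmt5 libraries, 24.8%, 25.9% and 25.6% in the prmt4a;4b libraries and 21.5%, 21.3% and 21.6% in the WT libraries. Here the 3 genotypes do not overlap, and prmt4a;4b lay between prmt5 and WT. The prmt5 libraries also held more gene reads than the others, and the part of depth in these shares was not tested. The shares are given as values, without a test.

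**Figure D1:**
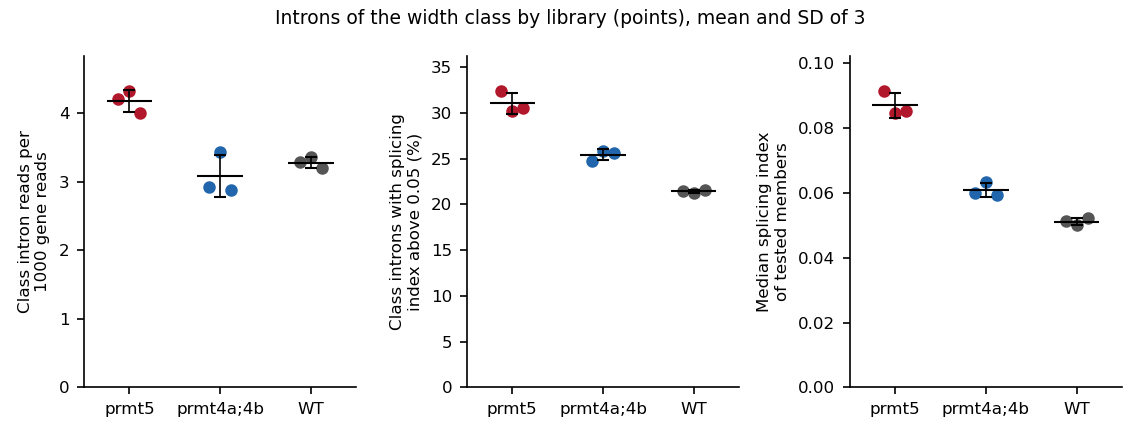
Reads in introns of 121 to 300 bases per 1000 gene reads, percent of the introns in expressed genes with a splicing index above 0.05, and median splicing index of the tested introns, for each library of prmt5, prmt4a;4b and WT (points) with the mean and SD of 3 libraries. The prmt5 libraries are highest in all 3 panels, and prmt4a;4b is above WT in the middle and right panels but not in the left one.

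Of the 29127 introns, 5996 (20.6%) had no read in any library, and 3693 (12.7%), in 2859 genes, had a mean of at least 5 reads over the 9 libraries in an expressed gene and were tested. The filter favours introns that are high in 1 genotype: 477 of the tested introns reached a mean of 5 reads in prmt5 alone, 16 in prmt4a;4b alone and 95 in WT alone, 2728 reached it in WT and 2089 in every genotype. Counts of calls over tested introns are therefore descriptions. The median index of the tested introns was 0.0915, 0.0846 and 0.0852 in the prmt5 libraries, 0.0601, 0.0633 and 0.0593 in prmt4a;4b and 0.0513, 0.05 and 0.0523 in WT. Few introns were covered like exons, and an index above 0.5 was reached by 374 of the 3693 in prmt5, 266 in prmt4a;4b and 198 in WT. Not all fit the name constitutive in RefSeq, since 458 of them are retained in a RefSeq transcript, and 186 overlap an exon of another annotated gene, whose reads cannot be told apart from theirs because the libraries do not mark strand.

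In prmt5, 971 of the 3693 tested introns (26.3%, in 879 genes) were retained more than in WT and 148 (4.01%, in 141 genes) less. A call needed an adjusted p under 0.15 in edgeR's quasi-likelihood test, log2 changes of intron reads and of splicing index beyond 0.58 in the same direction, and an index above 0.05 in a compared genotype. Over all 13957 introns tested, of any length, 22.6% were called higher and 4.98% lower, and the median log2 index ratio was 0.49 in the class and 0.41 over all. The changes were large, since 837 of the 971 went beyond 2-fold, 417 beyond 4-fold and 174 beyond 8-fold, against 99, 14 and 1 of the 148 lower calls. By splicing index the 3 prmt5 libraries all lay above the 3 WT libraries in 1240 of the 3693 introns (33.6%), against 30.6% of all tested introns, and 839 of these 1240 were among the 971, which the calls had already chosen for this difference. With library factors taken from intron reads, which moves the median log2 change of all introns to 0.05 from 0.47, 707 introns were called higher and 203 lower. Among the 2728 introns with a mean of 5 reads in WT, a subset chosen after seeing the data, 420 (15.4%) were called higher and 148 (5.43%) lower, against 13.5% and 6.48% of the 10726 introns of any length in that subset.

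Calls per length class show where the introns of 121 to 300 bases lie, and no test of a difference between length classes was made. In prmt5 the share called higher was 18.6% of introns up to 85 bases, 23.9% from 86 to 120 bases, 26.3% from 121 to 300 bases and 19.9% above 300 bases. The share called lower was 7.63%, 6.37%, 4.01% and 1.77% from the shortest to the longest class. At the edges of the class, 14 of 46 tested introns of 121 bases were called higher and 4 lower, against 8 and 3 of 39 tested at 120 bases, and 5 of 16 were called higher at 300 bases against 2 of 15 at 301 bases. Within the class, the higher share changed little with length, with 27.4% for up to 150 bases, 25.4% for up to 200 bases and 26.1% above, while the lower share was 5.64%, 4.43% and 2.52%.

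**Figure D2:**
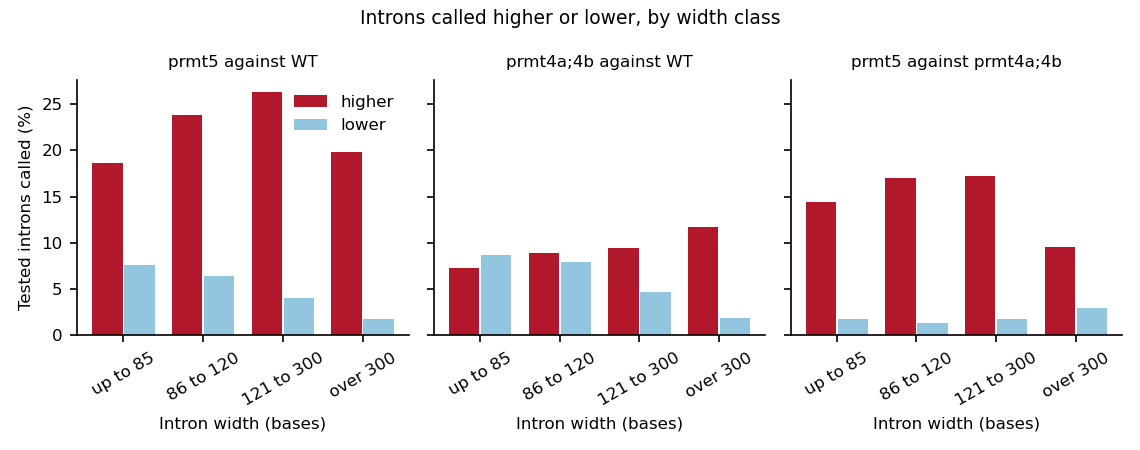
Percent of tested introns called higher and lower in prmt5 against WT, prmt4a;4b against WT and prmt5 against prmt4a;4b, in 4 length classes. In the class of 121 to 300 bases, 26.3%, 9.45% and 17.3% were called higher and 4.01%, 4.71% and 1.73% lower.

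In prmt5, retention varied with the last bases of the exon. Of the 20283 introns in expressed genes, only those with GT-AG ends were grouped by these bases. Among them, 2224 had neither A at -2 nor G at -1, and 40.1%, 37.1% and 37.3% of these 2224 had an index above 0.05 in the prmt5 libraries, against 24.9%, 25.9% and 24.9% in the prmt4a;4b libraries and 19.3%, 17.9% and 19.3% in the WT libraries. The 11180 introns with both bases gave 31.2%, 29.3% and 29.8% in prmt5, 25.5%, 26% and 26.3% in prmt4a;4b and 22.7%, 22.8% and 22.5% in WT. Introns with neither base were thus below those with both in every WT library and above them in every prmt5 library. The 4649 introns with G at -1 only gave 32.6%, 29.8% and 29.7% in prmt5, 23.4%, 25% and 25.3% in prmt4a;4b and 20.6%, 20.1% and 20.8% in WT, and the 1929 with A at -2 only gave 27.8%, 26.7% and 27.2% in prmt5, 21.7%, 25.1% and 21.9% in prmt4a;4b and 17.3%, 17.8% and 18.6% in WT. Summed reads per 1000 gene reads were 1.90 times those of WT in prmt5 for introns with neither base, 1.33 times with G only, 1.16 times with A only and 1.13 times with both. In prmt4a;4b the ratios were 1.03, 0.982, 0.844 and 0.908. In introns of other lengths, prmt5 gave ratios of 1.5, 1.39, 1.27 and 1.06 in the same order of bases.

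**Figure D3:**
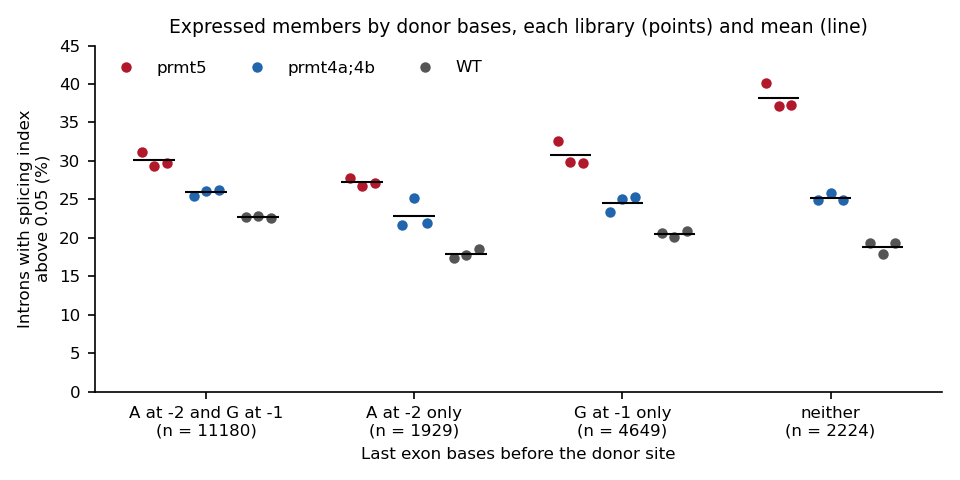
Percent of GT-AG introns of 121 to 300 bases in expressed genes with a splicing index above 0.05, by the last exon bases before the donor site, for each library of prmt5, prmt4a;4b and WT (points) and the mean of 3 (lines). Introns with neither A at -2 nor G at -1 reach 37.1 to 40.1% in prmt5, against 24.9 to 25.9% in prmt4a;4b and 17.9 to 19.3% in WT.

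The calls put introns with neither base first and those with both last, as the read ratios did, with those having 1 of the bases between them. Among tested GT-AG introns with neither base, 239 of 491 (48.7%) were called higher in prmt5 than WT, with a median log2 index ratio of 1.21, against 21.6% of the 1956 with both bases, 25.8% of the 322 with A only and 24.4% of the 850 with G only. Over introns of all lengths the shares were 44.8%, 17.0%, 24.9% and 22.9%. Seen from the calls, A at -2 was present in 53.2% of the introns higher in prmt5, in 66.4% of those not called and in 66.9% of those lower, and G at -1 in 66.2%, 81.6% and 81.7%. The donors of higher introns matched a mean of 3.41 of the 7 usual bases and those not called 3.95. Inside the intron, A at +3 was present in 51.6% of the higher introns, 63.8% of those not called and 59.9% of those lower, and G at +5 in 42.0%, 46.6% and 59.2%. C stood before the AG of the acceptor in 64.4%, 64.4% and 64.1%. In the subset with a mean of 5 reads in WT, 27.4% of the 296 introns with neither base and 13.4% of the 1511 with both were called higher. In prmt4a;4b against WT the tested introns with neither base gave 11.4%, and those with both 8.49%.

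**Figure D4:**
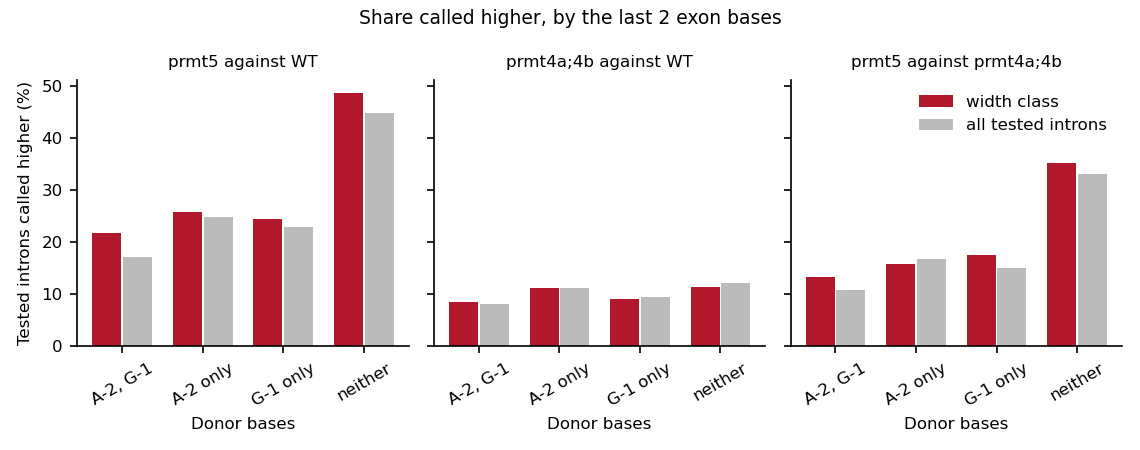
Percent of tested GT-AG introns called higher in prmt5 against WT, prmt4a;4b against WT and prmt5 against prmt4a;4b, by the last exon bases, for introns of 121 to 300 bases and for tested introns of all lengths, which include them. Introns of 121 to 300 bases with neither base give 48.7%, 11.4% and 35.2%, and those with both give 21.6%, 8.49% and 13.2%.

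Position in the transcript, base content and annotation were also described. In prmt5, 30.1% of 722 first introns, 28.0% of 2101 inner introns, 18.4% of 614 last introns and 20% of 150 sole introns were called higher than in WT. In prmt4a;4b the shares were 13.3%, 8.04%, 8.79% and 6%. Introns in the 5′ untranslated region stood higher in both mutants, with 37.5% of 184 called higher in prmt5 and 26.1% in prmt4a;4b, against 26.2% and 7.89% of the 3270 introns between coding exons. Over introns of all lengths the 5′ untranslated region gave 33.0% and 20.3%, against 22.5% and 8.21% between coding exons. The share called higher in prmt5 was 20.4%, 25.8% and 32.8% in 3 groups of 1231, 1227 and 1230 introns from the lowest to the highest U content, and 7.23%, 8.88% and 12.3% in prmt4a;4b. With the same U limits, introns of all lengths gave 16.6%, 21.9% and 29.1% for prmt5, and for prmt4a;4b the shares were 8.29%, 8.72% and 10.9%. Introns that a RefSeq transcript retains were called higher in 34.7% of 458 in prmt5 and 19.9% in prmt4a;4b, against 25.1% and 7.98% of the other 3235. Over all lengths these shares were 32.7% and 19.2%, against 21.5% and 8.22%.

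Tested introns of 1 gene can differ in their calls. Of 620 genes with at least 2 tested introns of the class, 335 had none called higher in prmt5, 60 had all of them called higher and 225 had some called higher and others not. In 14 genes 1 intron was called higher and another lower. Genes of the introns called higher in prmt5 were themselves called higher in 183 of 879 cases (20.8%) and lower in 53 (6.03%), with a median log2 gene change of 0.23. Of the 141 genes with a lower intron, 2 (1.42%) were called higher and 35 (24.8%) lower. Genes of introns that were not called gave 234 of 2109 higher (11.1%) and 325 lower (15.4%). A call needs a change of the intron reads themselves, which is easier to reach in the direction in which the gene moves. Part of the difference between these shares is thus built into the calls, and how much was not tested.

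The introns with the largest ratios named below were chosen by size of change and reads. Their splicing indices also had to show no overlap between the compared genotypes. A lack of overlap between those genotypes was thus fixed by the choice and adds nothing to it. In prmt5, 8 introns had the largest ratios among those with at least 10 reads in each genotype. CYP38, a cyclophilin of the thylakoid lumen needed for photosystem assembly, had 70, 70 and 80 reads in intron 2 of 6 in prmt5, against 8, 8 and 9 in prmt4a;4b and 8, 0 and 3 in WT. Its splicing index was 0.275 ± 0.0785 in prmt5, 0.0416 ± 0.00675 in prmt4a;4b and 0.0114 ± 0.0115 in WT (SD, n = 3). Every prmt5 library was far above the rest, and intron reads rose over WT by a log2 change of 4.13 ± 0.53 (SE, edgeR adjusted p = 4.72e-06). MMZ3, a ubiquitin-conjugating enzyme variant, had 120, 135 and 117 reads in intron 2 of 3 in prmt5, against 13, 18 and 19 in prmt4a;4b and 11, 10 and 11 in WT. With an index of 1.13 ± 0.196 this intron was covered like the gene in prmt5, against 0.210 ± 0.0247 in prmt4a;4b and 0.0673 ± 0.0191 in WT. Its reads rose by 3.37 ± 0.34 on the log2 scale (adjusted p = 2.44e-07) while the log2 change of the gene was -0.72.

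AT4G25170, an uncharacterised conserved protein whose intron 2 has the donor with no usual base, had 94, 94 and 89 reads there in prmt5, against 6, 0 and 10 in prmt4a;4b and 4, 8 and 1 in WT (prmt5 over WT, log2 4.26 ± 0.44, adjusted p = 2.56e-07). CJD1, a chloroplast J-like domain protein, had 194, 121 and 114 reads in intron 6 of 9 in prmt5, against 9, 24 and 19 in prmt4a;4b and 3, 5 and 13 in WT (4.19 ± 0.47, adjusted p = 8.06e-07). For both, no prmt5 library overlapped another genotype, which the choice had required against WT only. The remaining introns of this kind were intron 1 of AT1G01320, in the 5′ untranslated region of a tetratricopeptide repeat gene (4.63 ± 0.46), intron 1 of AT1G54320, a CDC50 family gene (4.22 ± 0.38), intron 3 of PXN, the peroxisomal NAD carrier (3.93 ± 0.39), and intron 3 of ACA1, an alpha carbonic anhydrase (3.08 ± 0.34). Their adjusted p-values for prmt5 against WT lay between 5.08e-08 and 7.64e-07. None of the 8 except CJD1 was called in prmt4a;4b against WT, and the call of CJD1 there (1.48 ± 0.57, adjusted p = 0.0865) was lost without prmt4a;4b replicate 2 or 3 or WT replicate 1 or 2 (adjusted p = 0.229 to 0.275). The prmt5 calls of all 8 were kept under every alternative and without each single library.

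**Figure D5:**
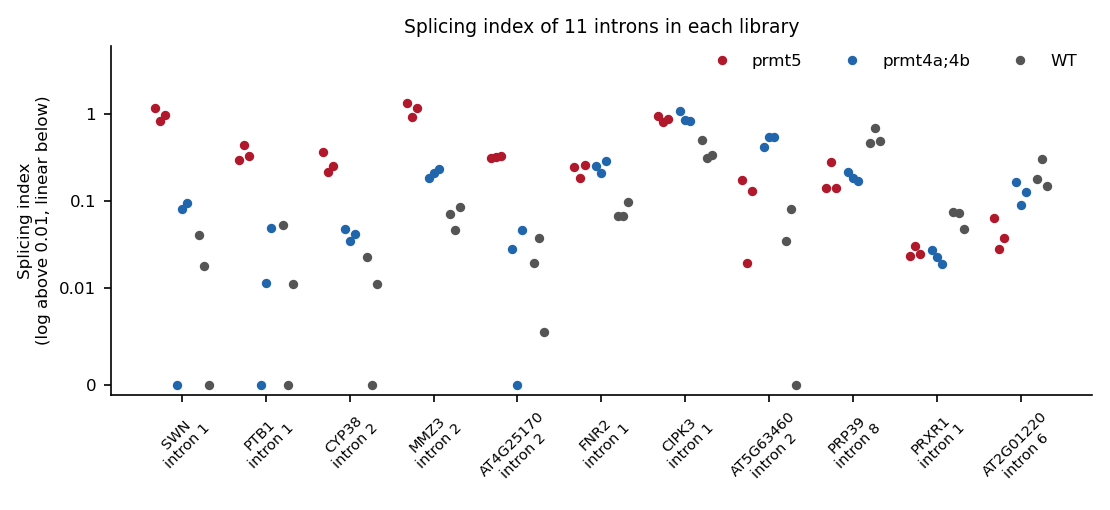
Splicing index of 11 introns in each library of prmt5, prmt4a;4b and WT (1 point per library, axis linear below 0.01 and logarithmic above). SWN, PTB1, CYP38, MMZ3 and AT4G25170 are high in prmt5 alone, FNR2 and CIPK3 in both mutants, AT5G63460 in prmt4a;4b, PRP39 and PRXR1 are lower in both mutants than in WT, and AT2G01220 is lowest in prmt5.

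Fewer introns were retained less in prmt5, and the changes were smaller. AT2G01220, a nucleotidylyl transferase family gene, had 15, 11 and 13 reads in intron 6 of 11 in prmt5, against 38, 25 and 27 in prmt4a;4b and 45, 77 and 32 in WT. Reads fell in prmt5 (log2 -2.07 ± 0.38, adjusted p = 0.000341), also against prmt4a;4b (-1.56 ± 0.39, adjusted p = 0.00624). PRXR1, a peroxidase, had 179, 231 and 166 reads in intron 1 of 3 in prmt5, 206, 144 and 108 in prmt4a;4b and 451, 431 and 284 in WT. Its index was 0.0261 ± 0.00359 in prmt5, 0.0231 ± 0.00437 in prmt4a;4b and 0.0647 ± 0.0150 in WT, and reads fell in prmt5 (-1.16 ± 0.25, adjusted p = 0.00133) as well as in prmt4a;4b (-1.07 ± 0.27, adjusted p = 0.0118). AKR2, a chaperone of chloroplast outer membrane proteins, fell in intron 6 of 8 in prmt5 (-1.84 ± 0.38, adjusted p = 0.000988) as well as in prmt4a;4b (-1.54 ± 0.37, adjusted p = 0.00874). PRP39, known in yeast as a factor of the U1 particle, had 32, 90 and 40 reads in intron 8 of 14 in prmt5, 30, 28 and 23 in prmt4a;4b and 67, 119 and 62 in WT. Its index was 0.187 ± 0.0789 in prmt5, 0.188 ± 0.0218 in prmt4a;4b and 0.544 ± 0.123 in WT. Reads fell in prmt4a;4b (-1.33 ± 0.31, adjusted p = 0.00694) and in prmt5 (-0.79 ± 0.33, adjusted p = 0.0815), the last lost without prmt5 replicate 1 (adjusted p = 0.217), prmt5 replicate 3 (0.253) or WT replicate 2 (0.29).

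In prmt4a;4b, 349 of the 3693 introns (9.45%, in 340 genes) were retained more than in WT and 174 (4.71%, in 167 genes) less, where 9.36% and 5.93% of all 13957 introns were called. The median log2 index ratio was 0.25 in the class and 0.23 over all. The share called higher was thus close to that over all tested introns. Without prmt4a;4b replicate 2 the count of higher introns was 221, and without replicate 3 it was 212. DESeq2 called 225 higher and 105 lower, and library factors from intron reads gave 285 and 207. Of the 349, 277 went beyond 2-fold and 18 beyond 8-fold, and in 273, already chosen for this difference, the prmt4a;4b libraries all lay above the WT libraries by splicing index, as in 656 of the 3693 introns (17.8%) and 18.5% of all tested introns. In the subset with a mean of 5 reads in WT, 200 (7.33%) were called higher and 173 lower, against 7.34% and 7.68% of the introns of any length.

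The introns with the largest ratios in prmt4a;4b are given beside prmt5, both set against the same WT libraries. FNR2, a chloroplast ferredoxin-NADP oxidoreductase, had 245, 265 and 313 reads in intron 1 of 8 in prmt4a;4b and 310, 305 and 328 in prmt5, against 154, 174 and 137 in WT. The splicing index was 0.248 ± 0.0371 in prmt4a;4b and 0.229 ± 0.0387 in prmt5, against 0.0768 ± 0.0168 in WT. Neither mutant overlapped WT, which the choice had required of prmt4a;4b. Reads rose in prmt4a;4b (log2 1.08 ± 0.25, adjusted p = 0.00656) and in prmt5 (0.88 ± 0.25, adjusted p = 0.0118), the prmt5 call being lost with library factors from intron reads (adjusted p = 0.190). AT4G33625, annotated as a vacuole protein, rose in intron 3 of 5 in prmt4a;4b (2.03 ± 0.39, adjusted p = 0.00195) and prmt5 (1.83 ± 0.40, adjusted p = 0.00165). EIL1, a transcription factor of ethylene signalling, rose in its sole 5′ untranslated intron in prmt4a;4b (1.91 ± 0.36, adjusted p = 0.00167) and prmt5 (1.61 ± 0.36, adjusted p = 0.00192). AT3G51950, a CCCH zinc finger gene, had 58, 133 and 131 reads in intron 2 of 9 in prmt4a;4b and 81, 55 and 80 in prmt5, against 33, 13 and 27 in WT (prmt4a;4b over WT, 2.34 ± 0.37, adjusted p = 0.000423). RPP4, a disease resistance gene, reached an index of 2.04 ± 0.665 in intron 2 of 5 in prmt4a;4b and 2.2 ± 0.421 in prmt5, against 0.452 ± 0.265 in WT. An index above 1 means more reads per base in the intron than over the gene, and resistance genes have close copies between which reads can be split. SAMDC, the decarboxylase of polyamine synthesis, BT2, a BTB and TAZ domain protein, and AT3G61010 rose in prmt4a;4b by 1.19 ± 0.26, 1.71 ± 0.42 and 1.55 ± 0.35 (adjusted p = 0.00518, 0.01 and 0.00529). In prmt5 the changes were 0.59 ± 0.27, 3.25 ± 0.39 and 1.06 ± 0.38 (adjusted p = 0.115, 1.83e-06 and 0.0403). The prmt5 calls of SAMDC and AT3G61010 were lost with library factors from intron reads (0.718 and 0.237). That of SAMDC was also lost without any library but WT replicate 2 (0.157 to 0.229). That of AT3G61010 was also lost without prmt5 replicate 1 (0.225) or WT replicate 2 (0.164). BT2 was also higher in prmt5 than in prmt4a;4b (1.58 ± 0.38, adjusted p = 0.00411), a call lost relative to gene counts (0.188). The call missed a limit other than that on p without prmt5 replicate 1 (0.0502) or prmt4a;4b replicate 1 (0.0359).

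Among lower introns, FBA7, a fructose-bisphosphate aldolase, had 61, 49 and 48 reads in intron 2 of 5 in prmt4a;4b, against 133, 88 and 91 in WT (log2 -0.74 ± 0.29, adjusted p = 0.0974), a call lost without prmt4a;4b replicate 2 (0.269), prmt4a;4b replicate 3 (0.219) or WT replicate 1 (0.351). Y14, a protein of the exon junction complex, had 4, 3 and 4 reads in intron 3 of 3 in prmt4a;4b, 9, 21 and 15 in prmt5 and 169, 7 and 10 in WT. WT replicate 1 alone carried the high value. Without it, the lower call in prmt4a;4b had an adjusted p of 0.461, and in prmt5 the log2 change turned to 0.59 (adjusted p = 0.505).

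Compared directly, 638 of the 3693 introns (17.3%) were retained more in prmt5 than in prmt4a;4b and 64 (1.73%) less, where 15.0% and 1.89% of all tested introns were called, and the median log2 index ratio was 0.22 in the class and 0.18 over all. Of the 638, 535 went beyond 2-fold, 243 beyond 4-fold and 78 beyond 8-fold. Library factors from intron reads, which move the median log2 change of all introns to -0.03 from 0.31, gave 461 higher and 132 lower. Of tested GT-AG introns with neither A at -2 nor G at -1, 35.2% were higher in prmt5 than in prmt4a;4b, against 13.2% of those with both. Among introns higher in prmt5, 49.1% had A at -2 and 64.5% had G at -1, against 65.9% and 80.4% of those not called.

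Among named introns, the largest ratio between the mutants was in the first of SWN, a histone methyltransferase of the Polycomb group. It had 170, 173 and 180 reads in prmt5, against 0, 5 and 5 in prmt4a;4b and 4, 2 and 0 in WT. Its index in the libraries was 1.16, 0.811 and 0.966 in prmt5, 0, 0.0804 and 0.0950 in prmt4a;4b and 0.0406, 0.0179 and 0 in WT. In prmt5 the intron was covered like the gene, and in the other libraries it was nearly free of reads. The log2 change of reads was 5.32 ± 0.49 in prmt5 over prmt4a;4b (edgeR adjusted p = 6.45e-09) and 6.23 ± 0.48 over WT (adjusted p = 4.40e-09). AT3G23600, an alpha/beta hydrolase gene, had 62, 91 and 57 reads in intron 3 of 6 in prmt5 against 5, 7 and 4 in prmt4a;4b (3.32 ± 0.43, adjusted p = 2.20e-06). AT5G65260, an RNA-binding protein gene, had 79, 83 and 93 reads in intron 2 of 5 in prmt5 against 0, 8 and 4 in prmt4a;4b (4.04 ± 0.49, adjusted p = 7.36e-07). Both were also higher in prmt5 than in WT.

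In the other direction, AT1G13350, a protein kinase gene, had 23, 22 and 29 reads in intron 1 of 10 in prmt5, against 50, 78 and 59 in prmt4a;4b and 35, 41 and 36 in WT. It was lower in prmt5 than in prmt4a;4b (log2 -1.68 ± 0.32, adjusted p = 0.000454), with no overlap, as the choice required. RIK, which encodes a KH domain protein, had 42, 45 and 38 reads in intron 7 of 11 in prmt5 against 59, 110 and 70 in prmt4a;4b (-1.27 ± 0.30, adjusted p = 0.00365). AT1G17990 and AT1G18020, both oxidoreductase genes, carried identical counts in intron 1 in every library (28, 32 and 18 in prmt5 against 92, 72 and 53 in prmt4a;4b), and as near-identical copies their values are uncertain. AT5G63460, a SAP domain protein gene that the study itself named from these libraries, had 4, 1 and 6 reads in intron 2 of 6 in prmt5, 11, 19 and 15 in prmt4a;4b and 2, 6 and 0 in WT. Its index was 0.106 ± 0.0786 in prmt5, 0.496 ± 0.0739 in prmt4a;4b and 0.0385 ± 0.0403 in WT. It rose in prmt4a;4b over WT (2.72 ± 0.67, adjusted p = 0.00932) and was lower in prmt5 than in prmt4a;4b (-2.32 ± 0.68, adjusted p = 0.0176), while prmt5 against WT was 0.37 ± 0.99 (adjusted p = 0.810).

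Some introns had no read in 1 genotype, and the folds are then lower bounds set at 3 reads over the genotype. AT5G42740, a sugar isomerase gene, had 23, 49 and 32 reads in intron 13 of 22 in prmt5, against 0, 0 and 5 in prmt4a;4b and 0 in all WT libraries, at least 32.0-fold higher in prmt5 than in WT. AT1G56140, a receptor kinase gene, had 24, 31 and 11 reads in prmt5, 1, 1 and 2 in prmt4a;4b and 0 in WT, at least 20.3-fold higher in prmt5. AT1G69450, an ERD4 family gene, was at 0 in WT and at least 9.86-fold higher in prmt5 and 7.56-fold higher in prmt4a;4b, and AT3G13030 at least 8.63-fold and 7.56-fold higher. TPR3, a corepressor of the TOPLESS family, had 0 reads in intron 22 of 24 in all 6 mutant libraries and 34, 42 and 0 in WT, at least 27.4-fold lower in prmt5 and 21.2-fold lower in prmt4a;4b. WT replicate 3 also had none, and DESeq2 did not call it (adjusted p = 0.192 in prmt5 and 0.251 in prmt4a;4b).

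Calls in genes of splicing were counted by list, without a test of the list. They are set beside the shares over all tested introns, which were 22.6% higher and 4.98% lower in prmt5, 9.36% and 5.93% in prmt4a;4b and 15.0% and 1.89% in prmt5 against prmt4a;4b. All list introns are of 121 to 300 bases, where these shares were 26.3% and 4.01%, 9.45% and 4.71%, and 17.3% and 1.73%. Of 23 tested introns in SR splicing factor genes, which encode serine and arginine rich proteins that help choose splice sites, 5 (21.7%) were called higher and none lower in prmt5 against WT, 2 (8.70%) and none in prmt4a;4b, and 4 (17.4%) and none in prmt5 against prmt4a;4b, so the higher shares were near those over all tested introns. The list median log2 index ratio in prmt5 was 0.06, below the 0.41 of all tested introns. At an unadjusted edgeR p under 0.05, 0 of these introns were lower in prmt5 and in prmt4a;4b against WT and 1 was lower in prmt5 against prmt4a;4b, and DESeq2 called 0 lower in each comparison. Here and in the lists that follow, the direction at an unadjusted p is that of the log2 change of reads, with no limit on the index. SR34a had 85, 79 and 61 reads in intron 2 of 13 in prmt5, 14, 15 and 16 in prmt4a;4b and 2, 8 and 4 in WT, and rose in prmt5 (log2 3.85 ± 0.44, adjusted p = 1.06e-06). Its intron 10 of 13 rose as well (2.33 ± 0.39, adjusted p = 9.93e-05). SR45a had 113, 337 and 258 reads in intron 5 of 7, in the 3′ untranslated region, in prmt5, 38, 36 and 31 in prmt4a;4b and 33, 37 and 51 in WT (2.31 ± 0.34, adjusted p = 2.74e-05). SR34b (1.61 ± 0.57, adjusted p = 0.0388) and SCL33 (1.45 ± 0.36, adjusted p = 0.00492) were the others in prmt5, and DESeq2 did not call SR34b (adjusted p = 0.395). SR34b was also among the 4 called higher in prmt5 than in prmt4a;4b. That call was lost with DESeq2 (0.529) and without prmt5 replicate 3 or prmt4a;4b replicate 2 or 3 (0.170 to 0.255). In prmt4a;4b, SCL33 (1.85 ± 0.33, adjusted p = 0.00114) and SR34a intron 2 (1.93 ± 0.56, adjusted p = 0.0247) were called, beside log2 changes of the genes of 1.23 and 0.82. Relative to gene counts both calls were lost (0.159 and 0.219). SCL33 missed a limit other than that on p in prmt5 without prmt5 replicate 1, WT replicate 1 or WT replicate 2 (adjusted p = 0.0254 to 0.0399) and in prmt4a;4b without prmt4a;4b replicate 1, WT replicate 1 or WT replicate 2 (0.00241 to 0.0121), as did SR34a intron 2 in prmt4a;4b without replicate 1 (0.0493) or 3 (0.0983).

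Of 20 tested introns in other spliceosome and RNA-binding factor genes, 4 (20%) were called higher and 3 (15%) lower in prmt5, against 22.6% and 4.98% over all, 2 (10%) and 4 (20%) in prmt4a;4b, against 9.36% and 5.93%, and 2 (10%) and none in prmt5 against prmt4a;4b, against 15.0% and 1.89%, with a list median of 0.10 in prmt5. For prmt5 against prmt4a;4b, 1 was lower at an unadjusted edgeR p under 0.05, and DESeq2 called 0 lower. Genes of the polypyrimidine tract-binding proteins moved in both directions. PTB1 had 66, 122 and 86 reads in intron 1 of 9, in the 5′ untranslated region, in prmt5, 0, 1 and 4 in prmt4a;4b and 5, 0 and 1 in WT (log2 5.25 ± 0.54, adjusted p = 2.57e-07), beside a log2 change of the gene of 1.24. PTB3 intron 5 of 14 rose in prmt5 (3.65 ± 0.64, adjusted p = 0.000166), whereas PTB2 intron 3 of 10 fell (-1.57 ± 0.53, adjusted p = 0.0303). U2AF65A, the large subunit of the factor that binds the polypyrimidine tract at the acceptor site, had 9, 8 and 6 reads in intron 10 of 12 in prmt5, 17, 10 and 13 in prmt4a;4b and 35, 49 and 13 in WT (prmt5 over WT, -2.15 ± 0.47, adjusted p = 0.00140). LSM4 (emb1644), a subunit of the LSm ring, rose in intron 6 of 7 in prmt5 (1.30 ± 0.46, adjusted p = 0.0392) and prmt4a;4b (1.45 ± 0.49, adjusted p = 0.0511), lost without WT replicate 2 in both (0.162 and 0.193) and in prmt4a;4b also without replicate 3 (0.184), and in prmt5 with library factors from intron reads (0.178). Both were also lost relative to gene counts (0.194 in prmt5 and 0.289 in prmt4a;4b), beside log2 changes of the gene of 0.52 and 0.68. In prmt4a;4b, PTB1 intron 9 was called higher and SUS2, U2AF65A and PTB2 lower at adjusted p of 0.0852, 0.145, 0.148 and 0.149. PTB1 intron 9 was lost without prmt4a;4b replicate 2 or 3 or WT replicate 1 (0.180 to 0.252), U2AF65A without these or WT replicate 2 (0.263 to 0.429), SUS2 without any library but WT replicate 3 (0.171 to 0.386) and PTB2 without any library (0.162 to 0.281). Relative to gene counts SUS2 and PTB2 were lost (0.331 and 0.191), and DESeq2 did not call U2AF65A or PTB2 (0.225 and 0.242).

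Of 16 tested introns in circadian clock genes, 6 (37.5%) were called higher and none lower in prmt5, 2 (12.5%) and none in prmt4a;4b, and 3 (18.8%) and none in prmt5 against prmt4a;4b, where 22.6%, 9.36% and 15.0% of all tested introns were called higher, with a list median of 0.73 in prmt5. At an unadjusted edgeR p under 0.05, 2 were lower in prmt5, 2 in prmt4a;4b and 1 in prmt5 against prmt4a;4b, and DESeq2 called 0 lower in each comparison. RVE1, a MYB-like factor, had 21, 32 and 37 reads in intron 4 of 5 in prmt5, 12, 6 and 8 in prmt4a;4b and 16, 10 and 3 in WT, with an index of 0.555 ± 0.132 in prmt5, 0.196 ± 0.0811 in prmt4a;4b and 0.109 ± 0.0581 in WT (prmt5 over WT, log2 1.48 ± 0.46, adjusted p = 0.0199). RVE8, a MYB-like activator of evening genes, rose in intron 7 of 8 in prmt5 (1.85 ± 0.65, adjusted p = 0.0349) and prmt4a;4b (1.92 ± 0.66, adjusted p = 0.0534, lost without WT replicate 2 at 0.185). LCL1 (RVE4), its near relative, rose in intron 7 of 8 in prmt5 (2.46 ± 0.81, adjusted p = 0.0226). PRR7, a repressor of the morning genes, had 108, 214 and 197 reads in intron 5 of 8 in prmt5, 40, 68 and 35 in prmt4a;4b and 115, 101 and 69 in WT, and differed between the mutants (1.48 ± 0.29, adjusted p = 0.000653). Its call over WT (adjusted p = 0.0678) was lost without prmt5 replicate 2 or 3 or WT replicate 2 or 3 (0.148 to 0.224), that of its intron 3 (0.0331) without prmt5 replicate 2 (0.183) and that of AT5G64170 (LNK1; 0.149) without any library but WT replicate 1 (0.206 to 0.3). With library factors from intron reads, these 3 calls had adjusted p of 0.523, 0.160 and 0.506, and DESeq2 did not call LNK1 (0.250). RVE1 and LNK1 were also called higher in prmt5 than in prmt4a;4b. There RVE1 was lost without prmt5 replicate 3 (0.204) or prmt4a;4b replicate 2 (0.210) and with library factors from intron reads (0.163). LNK1 was lost there without prmt4a;4b replicate 2 (0.167). TIC was called higher in prmt4a;4b (0.88 ± 0.29, adjusted p = 0.05), lost without prmt4a;4b replicate 2 or 3 or WT replicate 1 or 2 (0.168 to 0.204).

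Of 8 tested introns in flowering time genes, 5 (62.5%) were called higher in prmt5, none in prmt4a;4b, and 5 (62.5%) higher in prmt5 than in prmt4a;4b, where 22.6%, 9.36% and 15.0% of all tested introns were called higher, with none lower and a list median of 1.44 in prmt5. In prmt4a;4b, 1 was higher and 0 were lower at an unadjusted edgeR p under 0.05, and DESeq2 called 0. Both SWN introns were among the 5 called higher in prmt5. The genes of this list hold 91 introns of the class, of which only the 8 passed the filters for testing. SWN intron 1 and VIP4 intron 1 reached a mean of 5 reads in prmt5 alone. They were thus let in by the genotype in which they are high, and the shares are descriptions. VIP4, a subunit of the Paf1 complex that keeps the flowering repressor FLC expressed, had 60, 68 and 57 reads in intron 1 of 10 in prmt5, 5, 2 and 6 in prmt4a;4b and 2, 5 and 4 in WT (log2 3.88 ± 0.44, adjusted p = 1.04e-06). HUA2, another activator of FLC, rose in intron 9 of 11 (3.32 ± 0.80, adjusted p = 0.00292), and AGL31 (MAF2), a floral repressor, in intron 2 of 6 (2.22 ± 0.81, adjusted p = 0.0411, lost without prmt5 replicate 1 at 0.163). SWN intron 4 (over WT, 1.64 ± 0.50, adjusted p = 0.0168) missed a limit other than that on p without prmt5 replicate 2 (0.141). Its call over prmt4a;4b did so without prmt5 replicate 2 (0.102) or prmt4a;4b replicate 2 (0.0809). Both calls were lost relative to gene counts (0.190 over WT and 0.371 over prmt4a;4b), beside log2 changes of the gene of 0.72 and 1.25. In the direct comparison, VIP4 (3.43 ± 0.46, adjusted p = 3.68e-06) and HUA2 (4.84 ± 1.11, adjusted p = 0.00136) were higher in prmt5, as was ELF8 at 2.31 ± 0.86 (adjusted p = 0.0590, lost without prmt5 replicate 2 or 3 or prmt4a;4b replicate 2, 0.158 to 0.220, and relative to gene counts, 0.234).

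Of 18 tested introns in light signalling genes, 2 (11.1%) were called higher in prmt5 and none lower, none higher and 1 (5.56%) lower in prmt4a;4b, and 2 (11.1%) higher in prmt5 than in prmt4a;4b, against 22.6% higher in prmt5, 5.93% lower in prmt4a;4b and 15.0% higher between the mutants over all tested introns, with a list median of -0.15 in prmt5. At an unadjusted edgeR p under 0.05, 2 were lower in prmt5 and 0 higher in prmt4a;4b, and DESeq2 called 0 in either case. PIF7, a transcription factor that phytochrome binds, had 51, 76 and 56 reads in intron 1 of 5 in prmt5, 12, 2 and 2 in prmt4a;4b and 0, 8 and 2 in WT (log2 4.01 ± 0.54, adjusted p = 7.70e-06). SPA3, a repressor of light responses, had an intron in each direction. Intron 1 of 6 was called higher in prmt5 (adjusted p = 0.105), lost without prmt5 replicate 1 or 2 or WT replicate 1 or 2 (0.163 to 0.301), with DESeq2 (0.191) and with library factors from intron reads (0.308), and intron 4, with an index of 2.16 ± 0.321 in prmt4a;4b against 3.97 ± 0.448 in WT, fell in prmt4a;4b (-1.17 ± 0.26, adjusted p = 0.00587). UVR8 was called higher in prmt5 than in prmt4a;4b (1.16 ± 0.42, adjusted p = 0.0597), lost without prmt5 replicate 1 or prmt4a;4b replicate 1 or 3 (0.166 to 0.212), with library factors from intron reads (0.222) and relative to gene counts (0.243).

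Of 11 tested introns in salt and abscisic acid response genes, 4 (36.4%) were called higher in prmt5, 2 (18.2%) in prmt4a;4b and 1 (9.09%) in prmt5 over prmt4a;4b, where 22.6%, 9.36% and 15.0% of all tested introns were called higher, with none lower and a list median of 0.91 in prmt5. At an unadjusted edgeR p under 0.05, 0 were lower in any comparison, and DESeq2 called 0 lower. CIPK3, a calcium-sensor-regulated kinase, had 100, 83 and 71 reads in intron 1 of 14 in prmt5, 67, 73 and 78 in prmt4a;4b and 40, 30 and 18 in WT. Its index of 0.864 ± 0.0729 in prmt5 and 0.910 ± 0.145 in prmt4a;4b, against 0.378 ± 0.1 in WT, rose in both mutants (log2 change of reads 1.41 ± 0.33 and 1.57 ± 0.31, adjusted p = 0.00320 and 0.00234). ICE1, a regulator of cold response, rose in its first intron, in the 5′ untranslated region, in prmt5 (1.80 ± 0.47, adjusted p = 0.00629) and prmt4a;4b (2.03 ± 0.48, adjusted p = 0.00702). P5CS1, an enzyme of proline synthesis, rose in intron 3 of 20 in prmt5 over WT (1.90 ± 0.49, adjusted p = 0.00577) and over prmt4a;4b (1.52 ± 0.49, adjusted p = 0.0352, lost without prmt4a;4b replicate 1 at 0.153 and relative to gene counts at 0.207). ABF2 was called higher in prmt5 (adjusted p = 0.137), lost without prmt5 replicate 1 or 3 or WT replicate 1 or 2 (0.269 to 0.417), with DESeq2 (0.222), edgeR's exact test (0.154) and library factors from intron reads (0.354).

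None of 13 tested introns in primary metabolism genes was called in any comparison, with list medians of 0.16 in prmt5, 0.46 in prmt4a;4b and -0.10 between the mutants. At an unadjusted edgeR p under 0.05, 2 of these introns were higher and 4 lower in prmt5 against WT, 1 higher and 3 lower in prmt4a;4b against WT, and 0 higher and 1 lower in prmt5 against prmt4a;4b, and DESeq2 called 0 in each comparison. Of 2 tested introns in small RNA and RNA decay genes, LBA1 (UPF1), the helicase of nonsense-mediated decay, was called lower in prmt5 in its last intron (adjusted p = 0.130), lost without any library but WT replicate 1 (0.176 to 0.384) and with DESeq2 (0.243). The other, in DCL1, which processes microRNA precursors, overlaps an exon of another gene. It had 3, 5 and 6 reads in prmt5, 17, 21 and 11 in prmt4a;4b and 2, 17 and 4 in WT, called higher in prmt4a;4b than WT (adjusted p = 0.108) and lower in prmt5 than prmt4a;4b (adjusted p = 0.0133). DESeq2 called 0 introns of this list in prmt4a;4b against WT and 1 lower in prmt5 against prmt4a;4b. The DCL1 intron lies outside the rule for naming introns and is given because the list holds 2.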

How the data were processed

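Poly(A) RNA reads were mapped by the authors with TopHat2 2.0.9 on TAIR10, and custom scripts in R 3.0.2 made counts for genes and for introns. The deposited values are raw whole-number counts. Whether counting used strand is not given in the sources used here. The WT columns of both mutant tables are identical. The authors' tables of fold changes, FDR and splicing index were not used.

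Intron tests used edgeR 4.0.16 (R 4.3.3, quasi-likelihood, Benjamini-Hochberg over all 13957 tested introns), with library sizes and TMM factors from gene counts. Each mutant was fitted with WT, and the mutants were compared in a fit of all 9 libraries. Splicing index ratios use 0.5 added read. Genes were called at an adjusted p under 0.10. The named introns overlap no exon of another gene and were 8 higher and 4 lower per mutant, or 4 and 4 between mutants, by index ratio, with a mean of 50 reads in the higher genotype and 10 summed in each. These were taken only from calls whose splicing indices per library did not overlap between the compared genotypes. To these come 3 per mutant with 0 reads in 1 genotype, all calls in the gene lists and introns of genes named by the study. The members and lists were chosen with earlier results of these data known. The lists match 26 of 30 spliceosome and 8 of 9 small RNA genes and all genes of the others. The script was tested on simulated data. Alternatives were DESeq2 1.42.0, edgeR's exact test, library factors from introns, other read limits, a stricter adjusted p, a replicate block, gene counts as offset and leaving out each library. Replicate libraries differed beyond sampling noise (2.57 to 4.55, chi-square over its degrees of freedom). Sequences were read with pysam 0.24.0.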

Additional observations from a re-analysis of the deposited data

How the results depend on the processing

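Counts of calls in introns of 121 to 300 bases depended mostly on the read limit, which also sets the number tested. The main counts are out of 3693 tested introns, against 831 at a mean of 20 reads and 2728 with a mean of 5 reads in WT. Fewer calls at such a limit thus do not mean that a smaller share was called. In prmt5 against WT, 971 higher and 148 lower became 1472 higher with a mean of 5 reads in a compared genotype (5395 introns tested), 257 and 35 with a mean of 20 reads (831 tested), 420 higher with a mean of 5 reads in WT, and 94 lower at an adjusted p under 0.05. In prmt4a;4b against WT, 349 and 174 became 225 and 105 with DESeq2, 140 and 54 with a mean of 20 reads, 162 and 82 at an adjusted p under 0.05, and 200 higher with a mean of 5 reads in WT. Between the mutants, 638 and 64 became 175 and 19 with a mean of 20 reads, 312 higher with a mean of 5 reads in WT, 132 lower with library factors from introns and 36 lower at an adjusted p under 0.05. At 20 reads fewer introns were tested, the WT subset by construction leaves out introns that are low in WT, and for DESeq2 the cause was not tested. Without 1 library, prmt5 gave 833 to 986 higher and 109 to 174 lower, prmt4a;4b 212 to 397 and 116 to 178, and the direct comparison 501 to 576 and 43 to 78. Same-numbered libraries did not deviate together (correlations of -0.03 to 0.03). The low reads of many tested introns could hide a weak pairing, so whether the numbers pair the samples is not known. A replicate block gave 943 and 135, 309 and 144, and 609 and 56. Of 129 calls of named introns, 86 were kept under every alternative that gave a value and 37 were lost without at least 1 library. The lower call of Y14 in prmt5 reversed without WT replicate 1, the adjusted p running from 0.003471 to 0.5047 as each library was left out. The depth limits what introns with a mean under 5 reads can show.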
